A study of Mus musculus with 4 samples.

Results

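The 32 genes described here serve antigen presentation and the response to interferon-gamma, and were looked up by symbol in the deposited table of 24452 genes, where all 32 were found. They fall into 11 genes of the MHC class I pathway, 5 of the class II pathway, 13 interferon-inducible GTPases, and a group of 3 made up of both chains of the interferon-gamma receptor and Irf1. RNA was sequenced from regulatory T cells (Tregs), CD4 T cells that carry the transcription factor Foxp3 and restrain immune responses, taken from the livers of young Altre-KO and Altre-WT mice. Altre is a long non-coding RNA of Tregs that was knocked out in the first of these genotypes. The labels give no strain, sex or exact age, do not say how the knockout was made, and do not say whether the libraries came from separate mice, so p-values measure only the spread between these libraries, which may be technical. Each genotype had 2 libraries, 4 in all. Levels are given in CPM, the authors' read counts of each gene as a share of a library's reads on all listed genes, which gives every library 1 common total. The comparison asks which of these transcripts differ when hepatic Tregs lack Altre.

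Interferon-gamma binds a receptor of the chains Ifngr1 and Ifngr2, which signals through the kinases Jak1 and Jak2. Genes that respond, Irf1 among them, can carry gamma-activated sites (GAS) in their promoters, and Irf1 with its relatives binds interferon-stimulated response elements (ISRE). Among the induced genes are those that cut proteins into peptides and load them on MHC class I, those of MHC class II in cells able to make it, and 2 families of GTPases that attack the membranes around microbes inside cells, the guanylate-binding proteins (Gbp) and the immunity-related GTPases. Mouse T cells make class I abundantly, while class II is the mark of B cells, dendritic cells and macrophages.

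Reads on listed genes, estimated from the smallest step of the deposited values, numbered 3266132 and 2361929 in Altre-KO and 1828773 and 2378953 in Altre-WT. They made up 32.8% of all reads in Altre-KO replicate 1, against 18.8% to 21.5% in the other libraries. A single read was worth 0.306 to 0.547 CPM. The T cell and Treg markers fixed for this work, 11 genes among them Cd4, Cd3e and Foxp3, summed to 3892 and 3779 CPM in Altre-KO and 3811 and 3893 CPM in Altre-WT. Foxp3 alone had 79.5 and 162 CPM in Altre-KO and 160.4 and 140.5 CPM in Altre-WT, lowest in Altre-KO replicate 1. Of 8 hepatocyte markers 5 were at 0 in all 4 libraries, Alb and Ttr included. Altre itself was not analysed here, and genotypes are as labelled.

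All 32 genes passed the filter on low values, and none passed the test between the genotypes across the 10486 genes tested. Limma on log2(CPM + 1), with Benjamini-Hochberg adjustment over all tested genes and a threshold of 0.05, called 0 of the 32 (lowest adjusted p = 0.999). It called 4 genes in all (0.0381% of those tested; 14 without Altre-KO replicate 2 and 16 without Altre-WT replicate 2), so at this background a count of 0 among 32 is not a result about these genes. At an unadjusted p under 0.05 there was 1 member, Cd74, against 384 of the 10486 tested genes, and with no filter on low values there was 0. Limma-voom on estimated reads also called 0 of the 32. Without Altre-KO replicate 2 the lowest adjusted p among the 32 was 0.417, and their median log2 fold change was 0.18. In the authors' deposited table all 32 had an adjusted p of 1. Log2 fold changes, Altre-KO minus Altre-WT, ran from -0.56 for H2-Ab1 to 0.56 for Ciita, with a median of 0.044 over the 32 genes against -0.013 over all tested genes, and 20 were above 0 and 12 below. Both Altre-KO libraries lay above both Altre-WT libraries for 4 of the 32 genes (12.5%), against 14.7% of all tested genes. They lay below for 7 (21.9%), against 16.1%. The other 21 overlapped. A p that misses the threshold does not show equal levels, and the 95% intervals given below, which are not adjusted for the number of genes, say which sizes of difference the data still allow.

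**Figure D1:**
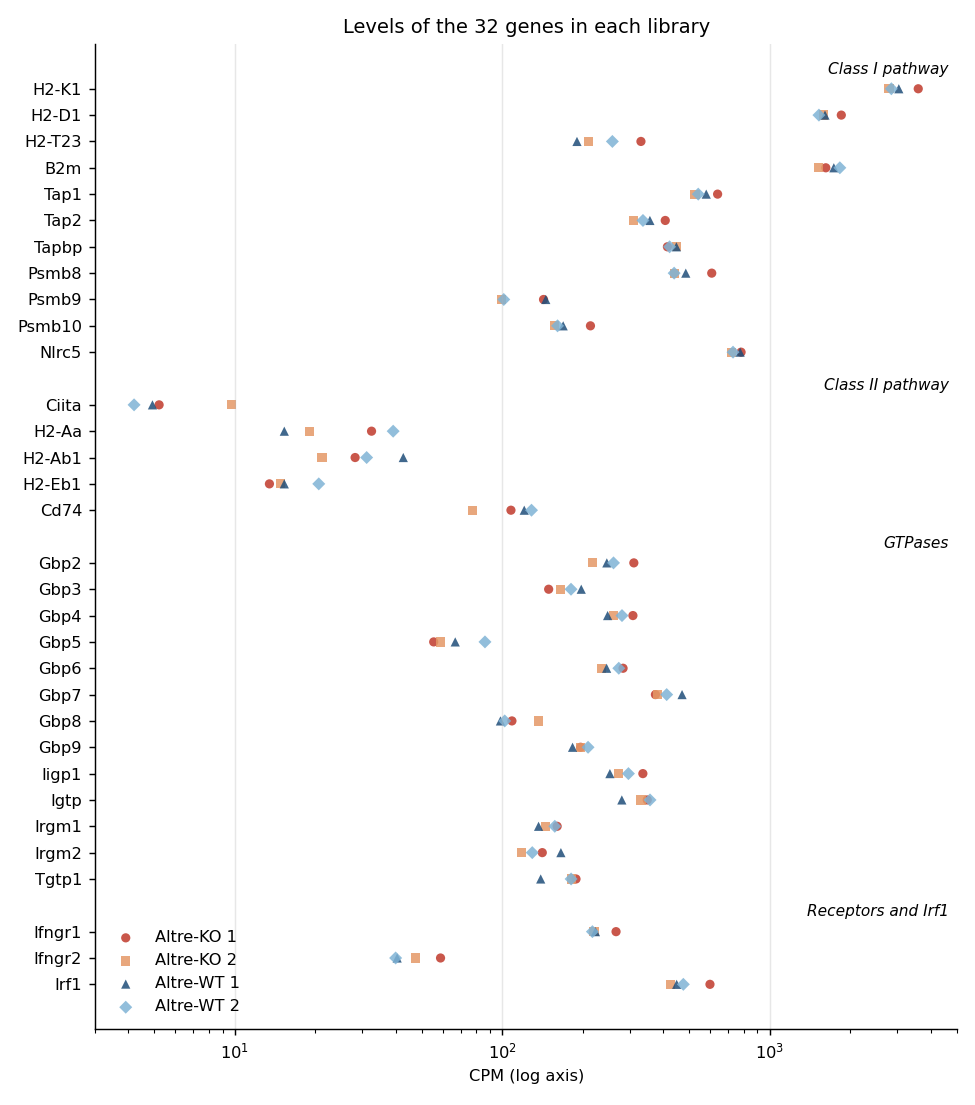
Level of each of the 32 genes in each library, in CPM on a log axis, by group of genes; 1 symbol per library (Altre-KO circles and squares, Altre-WT triangles and diamonds). For 21 of the 32 genes the ranges of the genotypes overlap. Altre-KO replicate 1 is the rightmost symbol for 17 of the 32, and was the highest library for 30.7% of all tested genes.

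The heavy chains of classical class I, H2-K1 and H2-D1, and their light chain B2m were the most abundant of the 32 transcripts per length of exon. Averaged over the 4 libraries and divided by exon length in kilobases, B2m was at 1952 CPM per kb, H2-K1 at 1045 and H2-D1 at 637, and the ranges of these 3 did not overlap with each other or with the next gene, Igtp, at 162.6. H2-K1 had 3593 and 2792 CPM in Altre-KO, against 3039.7 and 2851 CPM in Altre-WT. H2-D1 had 1853 and 1585 CPM in Altre-KO, against 1609.8 and 1528 CPM in Altre-WT. For both heavy chains Altre-KO replicate 1 was highest, and the other 3 libraries lay close together. Their log2 fold changes were 0.11 (95% interval -0.23 to 0.44) and 0.13 (-0.18 to 0.43). B2m stood on the other side of wild type, with 1621 and 1525 CPM in Altre-KO and 1737 and 1829 CPM in Altre-WT. Its genotypes did not overlap, but the difference was small (log2 fold change -0.18, 95% interval -0.48 to 0.12, limma adjusted p = 0.999). B2m also had the smallest p of the 32 genes in the authors' deposited table, 0.0717 before adjustment. H2-T23, which encodes the non-classical class I molecule Qa-1 that presents peptides from other class I molecules, had 330.05 and 210.0 CPM in Altre-KO, against 190.3 and 258 CPM in Altre-WT (log2 fold change 0.25, 95% interval -0.15 to 0.64). Libraries within each genotype lay farther apart than the genotype means, 270.0 and 224 CPM, and the log2 fold change was -0.077 without Altre-KO replicate 1 and 0.57 without Altre-KO replicate 2.

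H2-K1 and H2-D1 carried the same enhancer element upstream of their starts. The promoters below, from RefSeq on GRCm38.p6, end at the base before the annotated transcript start, and capitals mark the class I enhancer A, an 11-base NF-kB-like site shown by these letters. The window is chr17:34000334-34000483 (reverse strand) for H2-K1 and chr17:35262894-35263093 (forward strand) for H2-D1.
H2-K1: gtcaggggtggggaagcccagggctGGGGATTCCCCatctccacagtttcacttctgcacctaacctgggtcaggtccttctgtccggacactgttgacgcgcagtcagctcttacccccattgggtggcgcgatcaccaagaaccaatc
H2-D1: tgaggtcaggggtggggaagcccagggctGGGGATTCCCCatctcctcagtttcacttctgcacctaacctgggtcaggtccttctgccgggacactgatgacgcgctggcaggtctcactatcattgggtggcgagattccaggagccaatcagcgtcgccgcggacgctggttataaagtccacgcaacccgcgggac
The enhancer begins at position -125 from the start in H2-K1 and at -171 in H2-D1, and the longest stretch of bases that both windows share, which includes it, is 42 bases. It was found in 10 of 32817 promoters of the same length (0.0305%), searching both strands of the 250 bases before the start, windows of these genes included. Transcripts of the class I heavy chains resemble each other. H2-K1 matched an H2-D1 transcript at 96.1% identity over 203 bases and an H2-Q7 transcript at 97.0% over 201 bases. Both matched transcripts are annotated as keeping an intron. H2-T23 matched the pseudogene H2-T-ps at 95.6% over 1068 bases. Reads in such stretches could be assigned to either gene, although the estimated reads of H2-K1, H2-D1 and H2-T23 were whole in every library.

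Genes that make and load the peptides had log2 fold changes from -0.027 for Psmb9 to 0.16 for Psmb8. Their 95% intervals reached down to -0.45 for Psmb9 and up to 0.51 for Psmb10. Tap1 and Tap2, the subunits of the pump that carries peptides into the endoplasmic reticulum, were at 639 and 526 CPM in Altre-KO against 579 and 541 CPM in Altre-WT, and at 407 and 310.3 CPM in Altre-KO against 357 and 336 CPM in Altre-WT. Tapbp, which encodes tapasin, the bridge between the pump and class I, had 415 and 448 CPM in Altre-KO and 448 and 422 CPM in Altre-WT. Tapbp had the narrowest spread of the 32 genes, its highest and lowest library being 7.77% of its median apart. The catalytic subunits of the immunoproteasome, the protease form that favours peptides fit for class I, are Psmb8, Psmb9 and Psmb10. Psmb8 had 607 and 440.3 CPM in Altre-KO and 486 and 439 CPM in Altre-WT, and Psmb10 had 214 and 157 CPM in Altre-KO and 169 and 161 CPM in Altre-WT. In both, Altre-KO replicate 1 stood above the other 3 libraries. Psmb9 had 143 and 99.5 CPM in Altre-KO, against 145 and 101.3 CPM in Altre-WT, so that replicate 1 was high and replicate 2 low in both genotypes (means 121 and 123 CPM). Psmb9 and Tap1 are neighbours on opposite strands whose annotated spans share 212 bases, and without a statement that counting used strand, reads there cannot be told apart. Nlrc5, the transactivator of the class I genes, had 782 and 718 CPM in Altre-KO and 775 and 729 CPM in Altre-WT (log2 fold change -0.0054, 95% interval -0.30 to 0.29).

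Over the 11 class I genes the median log2 fold change was 0.051, with 7 above 0 and 4 below and all values between -0.18 and 0.25. Their 95% intervals lay between 0.717-fold and 1.56-fold, so a doubling or halving of any of them lies outside its own interval. The sign of the median depended on which Altre-KO library was used. Altre-KO replicate 1 was the highest library for 8 of the 11 genes, against 30.7% of all tested genes. Altre-KO replicate 2 was the lowest for 7 of the 11, against 2905 of all 10486 tested genes. Without Altre-KO replicate 1 the class I median was -0.076, and without Altre-KO replicate 2 it was 0.23. Altre-KO replicate 1 is also the library with the larger share of reads on listed genes, whose part in these values was not tested.

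**Figure D2:**
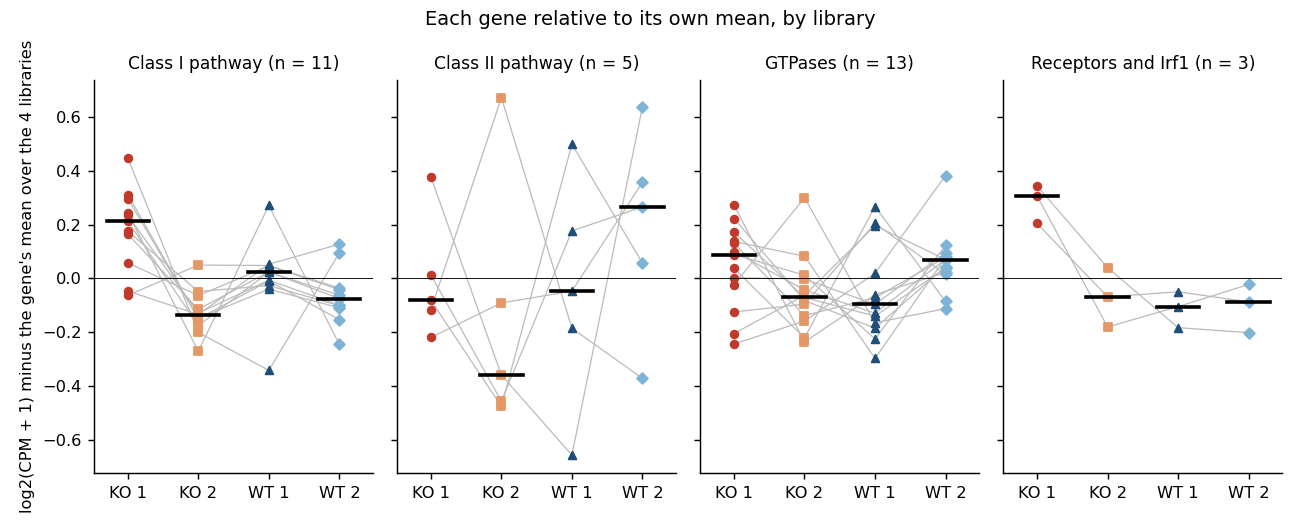
Each gene's log2(CPM + 1) in a library minus its mean over the 4 libraries, with 1 grey line per gene, symbols as libraries and black bars as the median of the group in that library. The class I median is 0.21 in Altre-KO replicate 1 and -0.13 in Altre-KO replicate 2, with Altre-WT at 0.024 and -0.075 between them.

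Other genes of the class I pathway, a list of 18, had 16 members tested, of which 0 passed (8 above 0, 8 below, median log2 fold change 0.014, 0 at an unadjusted p under 0.05). Both Altre-KO libraries lay above both Altre-WT libraries for 4 of the 16 (25.0%) and below for 2 (12.5%), against 14.7% and 16.1% of all tested genes. H2-M3, which presents formylated peptides of bacteria and mitochondria, had 81.4 and 81.7 CPM in Altre-KO and 74.9 and 55.9 CPM in Altre-WT. H2-Q4, a non-classical class I gene, had 582 and 467 CPM in Altre-KO and 466 and 419.5 CPM in Altre-WT, and H2-T24 had 54.8 and 41.1 CPM in Altre-KO and 66.7 and 55.9 CPM in Altre-WT. These are the 3 with the smallest p, and each had a limma adjusted p of 0.999. H2-Ke6, also in the list, encodes a steroid dehydrogenase and not a class I molecule, despite its name.

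Among the class II genes, Cd74 stood at 64.7 CPM per kb of exon, in the middle of the 32 genes, while the 3 chains stood from 6.97 to 11.98 CPM per kb. In this group both Altre-KO libraries lay above both Altre-WT libraries for 1 of the 5 genes, Ciita, and below for 3, against 14.7% and 16.1% of all tested genes. Cd74, the invariant chain that escorts class II through the cell, had 107.8 and 77.5 CPM in Altre-KO, against 121 and 129 CPM in Altre-WT. Both Altre-KO libraries lay below both Altre-WT libraries (log2 fold change -0.44, 95% interval -0.84 to -0.044, limma p of 0.0312 unadjusted and 0.999 adjusted). The value was -0.21 without Altre-KO replicate 2 and -0.68 without Altre-KO replicate 1. H2-Ab1, the beta chain of the I-A molecule, had 28.2 and 21.2 CPM in Altre-KO and 42.7 and 31.1 CPM in Altre-WT, again without overlap (log2 fold change -0.56, 95% interval -1.16 to 0.048). That value ran from -0.78 without Altre-WT replicate 2 to -0.34 without Altre-WT replicate 1. H2-Eb1, the beta chain of I-E, had 13.5 and 14.8 CPM in Altre-KO and 15.3 and 20.6 CPM in Altre-WT, from 28 to 49 estimated reads per library. Its log2 fold change of -0.31 ran from -0.51 without Altre-WT replicate 1 to -0.11 without Altre-WT replicate 2. H2-Aa, the alpha chain that pairs with H2-Ab1, had 32.5 and 19.1 CPM in Altre-KO and 15.3 and 39.1 CPM in Altre-WT. The lowest and the highest of its 4 values were both wild type, and its log2 fold change of 0.018 ran from -0.63 without Altre-WT replicate 1 to 0.67 without Altre-WT replicate 2.

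Ciita, the transactivator on which class II transcription depends, was the lowest of the 32 genes, at 5.21 and 9.74 CPM in Altre-KO and 4.92 and 4.20 CPM in Altre-WT. These levels stand for 17 and 23 estimated reads in Altre-KO and 9 and 10 in Altre-WT. The values did not overlap, but the 95% interval of the log2 fold change of 0.56 ran from -0.58 to 1.69, and without Altre-KO replicate 2 it was 0.16. Ciita and H2-Aa thus stood above 0 and Cd74 and both beta chains below it, none past the test. The group's median log2 fold change was -0.31 over 5 genes, -0.49 without Altre-WT replicate 1 and -0.11 without Altre-WT replicate 2.

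Class II is set here beside markers of antigen-presenting cells in the same libraries. The 3 chains and Cd74 summed to 182 and 133 CPM in Altre-KO and to 194 and 219 CPM in Altre-WT. The 12 B cell markers summed to 67.4 and 57.6 CPM in Altre-KO and 63.4 and 86.6 CPM in Altre-WT, with 7 of the 12 at or under 5 CPM in all 4 libraries. Pax5 was at 0.0 and 0.42 CPM in Altre-KO and at 0 in both Altre-WT libraries. The 11 dendritic cell markers summed to 100.4 and 69.4 CPM in Altre-KO and 83.7 and 97.9 CPM in Altre-WT, mostly from Cst3 and Ccr9, and 8 of the 11 were at or under 5 CPM in all 4 libraries. Of the 11, 4 had both Altre-KO libraries below both Altre-WT libraries and Ccr9 had them above, against 16.1% and 14.7% of all tested genes. Those 4 (Xcr1, Siglech, Cd209a and Clec10a) were each among the 8 low markers. Siglech, Cd209a and Clec10a did not pass the filter on low values and were not tested. Xcr1 had 0.92 and 1.69 CPM in Altre-KO and 4.92 and 4.62 CPM in Altre-WT. The 14 markers of macrophages, Kupffer cells and monocytes summed to 326 and 188 CPM in Altre-KO and 221 and 321 CPM in Altre-WT, most of all from Lyz2 (165.0 and 66.1 CPM in Altre-KO, 102.3 and 154.7 CPM in Altre-WT), with the Kupffer cell genes Vsig4 and Marco at 0 in all 4 libraries. Altre-KO replicate 2 had the lowest sum in each of these 3 lists and in class II. Set against the 37 markers together, class II summed to 0.368 and 0.420 of them in Altre-KO and to 0.527 and 0.434 of them in Altre-WT, a ratio chosen after the values were seen. In bulk RNA, fewer cells of a type and less RNA per cell cannot be told apart, and the part of these markers in the class II values was not tested.

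**Figure D3:**
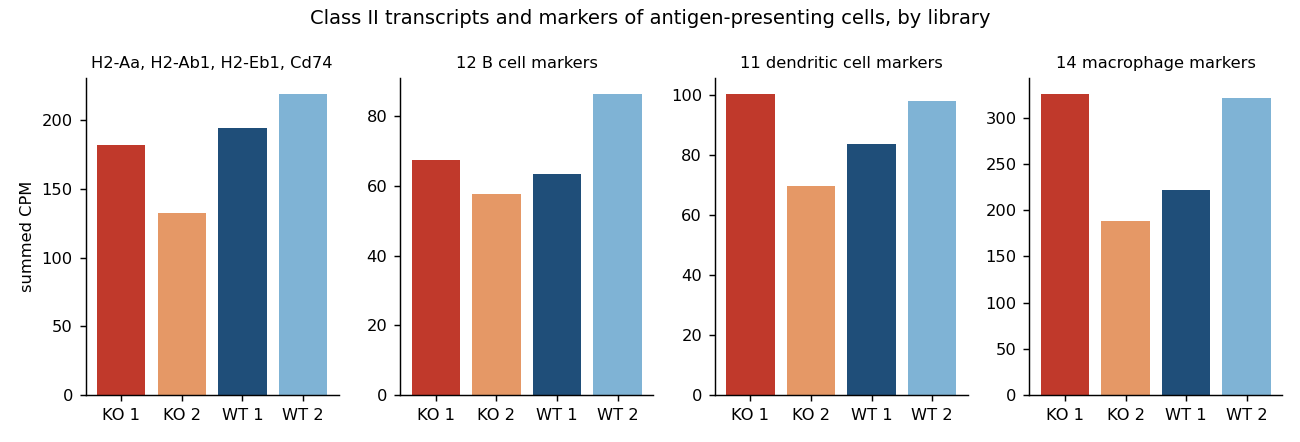
Summed CPM per library of the class II chains with Cd74 and of 3 lists of markers of antigen-presenting cells, 1 bar per library, each panel with its own axis from 0. Altre-KO replicate 2 is the lowest bar in all 4 panels, and Altre-KO replicate 1 is the highest for dendritic cell and macrophage markers.

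Of 21 other genes of the class II pathway, 20 were listed and 16 tested, and 0 passed (10 above 0, 6 below, 0 at an unadjusted p under 0.05, median log2 fold change 0.060). Rfx5, a factor of the complex that recruits Ciita to class II promoters, had 51.1 and 56.3 CPM in Altre-KO and 80.9 and 60.1 CPM in Altre-WT. Nfya, a subunit of the CCAAT-binding factor that acts beside it, had 34.0 and 52.9 CPM in Altre-KO and 50.9 and 58.0 CPM in Altre-WT. Cd86, a costimulatory ligand of antigen-presenting cells, had 38.0 and 41.1 CPM in Altre-KO and 51.4 and 47.5 CPM in Altre-WT. All 3 had a limma adjusted p of 0.999. In this list both Altre-KO libraries lay above both Altre-WT libraries for 4 of the 16 tested genes (Rfxap, Creb1, H2-DMa and H2-Ob) and below for 2 (Rfx5 and Cd86), against 14.7% and 16.1% of all tested genes.

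The 13 interferon-inducible GTPases were detected in every library. Igtp (Irgm3), a regulator among the immunity-related GTPases, was the most abundant of them per length of exon at 162.6 CPM per kb, and Gbp5 the least at 10.1. Their median log2 fold change was 0.038, with 8 above 0 and 5 below, and their 95% intervals lay between 0.556-fold and 1.58-fold. That median ran from -0.042 without Altre-WT replicate 1 to 0.13 without Altre-KO replicate 2. Among the GTPases both Altre-KO libraries lay above both Altre-WT libraries for 2 of the 13 (15.4%) and below for 3 (23.1%), against 14.7% and 16.1% of all tested genes. For the immunity-related GTPases, log2 fold changes ran from -0.18 for Irgm2 to 0.22 for Tgtp1, with 95% intervals between 0.679-fold and 1.49-fold. Igtp had 348 and 330.2 CPM in Altre-KO and 280.0 and 357 CPM in Altre-WT, and its relative Irgm1, which regulates autophagy and the other members of the family, had 160.4 and 145 CPM in Altre-KO and 137 and 157 CPM in Altre-WT. Irgm2, also of the regulatory branch, had 141 and 118 CPM in Altre-KO and 166 and 129 CPM in Altre-WT. Iigp1, an effector that coats the vacuoles of parasites, had 336 and 271 CPM in Altre-KO and 253 and 296 CPM in Altre-WT. Altre-WT replicate 1 was the lowest library for 4 of these 5 genes, Tgtp1 included, against 2730 of all 10486 tested genes. Irgm2 was the exception, where it was highest. Igtp and Irgm2 share 7974 bases of annotated span on the same strand. Tgtp1, another effector, had 188.7 and 182 CPM in Altre-KO and 139 and 181 CPM in Altre-WT, the lower Altre-KO value being less than 1 CPM above the higher Altre-WT value. Its transcript is 99.8% identical to that of Tgtp2 over 2811 bases, and its estimated reads were fractional in all 4 libraries (616.3 and 428.9 in Altre-KO, 254.6 and 430.3 in Altre-WT), so its separate value is uncertain. Tgtp2 had 334 and 288 CPM in Altre-KO and 293 and 326 CPM in Altre-WT.

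Promoter sequences were searched for the interferon elements on both strands. Of the 32 genes, 22 matched the RefSeq promoter table, 8 of them GTPases. An ISRE, written as GAAA, 2 bases of any kind and GAAA again, stood in the 250 bases before a start in all 8 of these GTPases and in 2 of 9 class I genes (B2m and H2-T23), against 2.97% of all promoters. Overlapping copies of it stood in Gbp3 and Irgm1. A GAS, spelled TTCNNNGAA, stood in 5 of the 8 GTPases and in Psmb8 and Irf1, against 7.01% of all promoters. Both elements together stood in 5 genes, all GTPases, against 0.329% of all promoters. In these 5 promoters, shown from RefSeq on GRCm38.p6 to the base before the start, capitals mark GAS and ISRE matches on either strand.
Igtp: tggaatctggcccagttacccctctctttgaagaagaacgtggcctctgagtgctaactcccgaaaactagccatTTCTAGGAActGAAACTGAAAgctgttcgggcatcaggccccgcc
Irgm2: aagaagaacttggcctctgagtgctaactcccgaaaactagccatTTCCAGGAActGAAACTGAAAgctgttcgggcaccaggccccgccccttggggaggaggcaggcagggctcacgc
Tgtp1: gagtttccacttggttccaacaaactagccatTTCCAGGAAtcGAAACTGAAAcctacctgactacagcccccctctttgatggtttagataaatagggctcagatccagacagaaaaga
Gbp7: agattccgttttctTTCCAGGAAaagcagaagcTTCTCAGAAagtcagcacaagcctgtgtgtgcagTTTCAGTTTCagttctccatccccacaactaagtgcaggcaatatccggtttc
Gbp5: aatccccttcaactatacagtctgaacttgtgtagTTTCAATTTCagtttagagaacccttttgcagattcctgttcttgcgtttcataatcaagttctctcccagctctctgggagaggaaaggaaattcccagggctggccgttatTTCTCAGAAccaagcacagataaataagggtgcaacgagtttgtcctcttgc
The windows are chr11:58199436-58199555 (forward strand) for Igtp, chr11:58214857-58214976 (forward strand) for Irgm2, chr11:48992247-48992366 (reverse strand) for Tgtp1, chr3:142530216-142530335 (forward strand) for Gbp7 and chr3:142496734-142496933 (forward strand) for Gbp5. In Igtp, Irgm2 and Tgtp1 the GAS comes first and the ISRE follows it after 2 bases. Igtp and Irgm2 share a run of 38 identical bases that ends inside the GAS, and Irgm2 and Tgtp1 one of 20 that takes in the whole GAS. In Gbp7 and Gbp5 the elements lie farther apart, and a further GAS of Gbp5, beginning at position -245 from its start, is outside the stretch shown. A match of letters is a description of the sequence and not of binding. A CCAAT box, which occurs in 33.8% of all promoters, overlapped no match of the other motifs in these genes. It was found in 7 of 9 class I genes and in both class II genes with a promoter in the table. It also stood in all 3 genes of the receptor and Irf1 group and in 2 of the 8 GTPases. Psmb9 and Tap1 are both counted for 1 site that their promoters share.

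**Figure D4:**
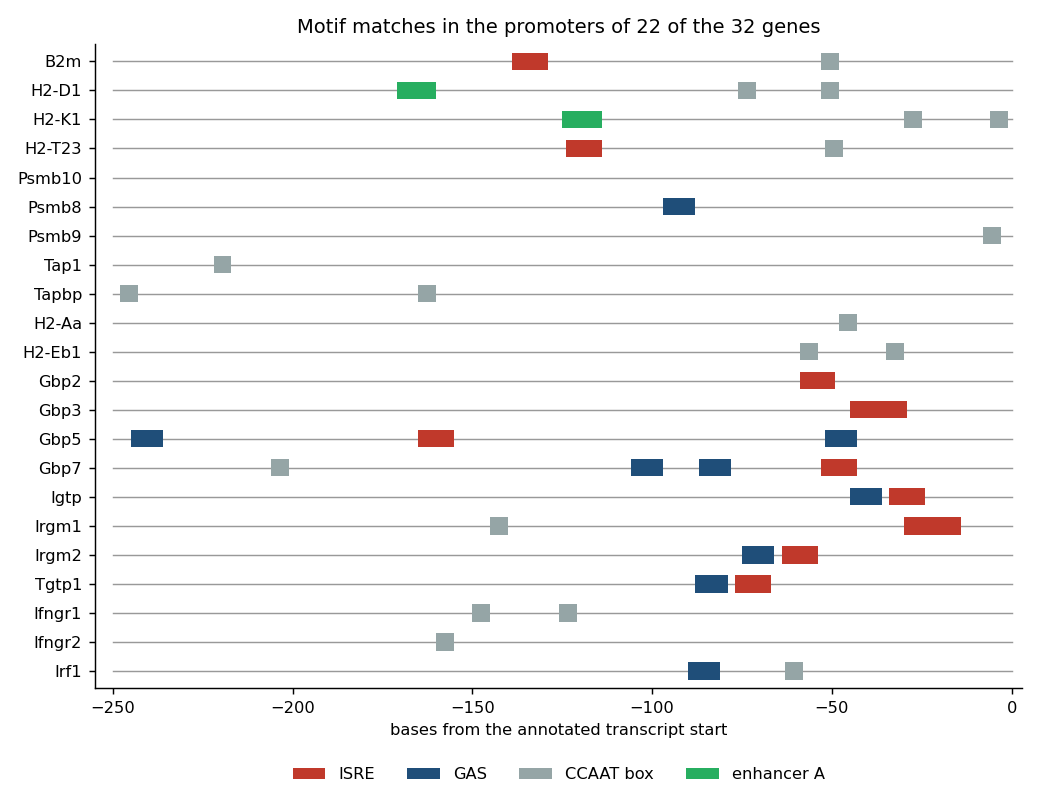
Matches of 4 motifs on either strand in the 250 bases before the annotated start of the 22 genes with a promoter in the table, 1 line per gene and 1 window each, drawn to scale. ISRE matches are in all 8 GTPases, with a GAS beside them in Igtp, Irgm2 and Tgtp1.

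The guanylate-binding proteins are encoded in clusters on chromosomes 3 and 5, and are given here by cluster, a split chosen after the values were seen. On chromosome 3, Gbp3 had 149 and 165 CPM in Altre-KO and 197 and 181 CPM in Altre-WT. Gbp5, which promotes assembly of the inflammasome, had 55.4 and 58.9 CPM in Altre-KO and 66.7 and 86.2 CPM in Altre-WT. Gbp7, which acts against vacuoles of intracellular microbes, had 374 and 381 CPM in Altre-KO and 470.3 and 412 CPM in Altre-WT, and 637 bases of its transcript are identical to the pseudogene Gm43802. Both Altre-KO libraries lay below both Altre-WT libraries in these 3 genes, with log2 fold changes of -0.27, -0.40 and -0.22 that ran from -0.34 to -0.20, from -0.59 to -0.22 and from -0.32 to -0.13 without each library in turn. The lowest and highest values were those without Altre-KO replicate 2 and Altre-KO replicate 1 for Gbp3, without Altre-WT replicate 1 and Altre-WT replicate 2 for Gbp5, and without Altre-WT replicate 2 and Altre-WT replicate 1 for Gbp7. Their 95% intervals all reached above 0, to 0.072, 0.041 and 0.084. Gbp2, also on chromosome 3, overlapped, with 310.5 and 218 CPM in Altre-KO and 246 and 261 CPM in Altre-WT. On chromosome 5, Gbp4 had 308 and 260.0 CPM in Altre-KO and 248 and 280.4 CPM in Altre-WT, and Gbp9 had 196 and 196 CPM in Altre-KO and 183 and 209 CPM in Altre-WT. Gbp8 was above wild type in both Altre-KO libraries, with 108.7 and 136 CPM in Altre-KO and 98.4 and 102 CPM in Altre-WT (log2 fold change 0.28, 95% interval -0.11 to 0.66; 0.12 without Altre-KO replicate 2 and 0.44 without Altre-KO replicate 1). Gbp6 had 283 and 235 CPM in Altre-KO and 246 and 273 CPM in Altre-WT. It is 98.7% identical to Gbp10 over 2536 bases and 99.8% to Gm43302 over 2603 bases, and its estimated reads were fractional in every library, so its value is uncertain. Gbp4, Gbp8 and Gbp9 overlap each other on the same strand and have near copies as well. The median log2 fold change was -0.24 over the 4 genes of chromosome 3 and 0.052 over the 4 of chromosome 5. Gbp10 and Gbp11, near copies of chromosome 5 members, are in neither median, nor is Gbp2b, given below. Gbp10 had 61.2 and 49.5 CPM in Altre-KO and 61.7 and 63.9 CPM in Altre-WT. Gbp11, not tested, had 3.98 and 1.69 CPM in Altre-KO and 8.75 and 4.20 CPM in Altre-WT. Both genes lay below wild type in both Altre-KO libraries. Of all tested genes, 16.1% lay below in this way and 14.7% above.

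**Figure D5:**
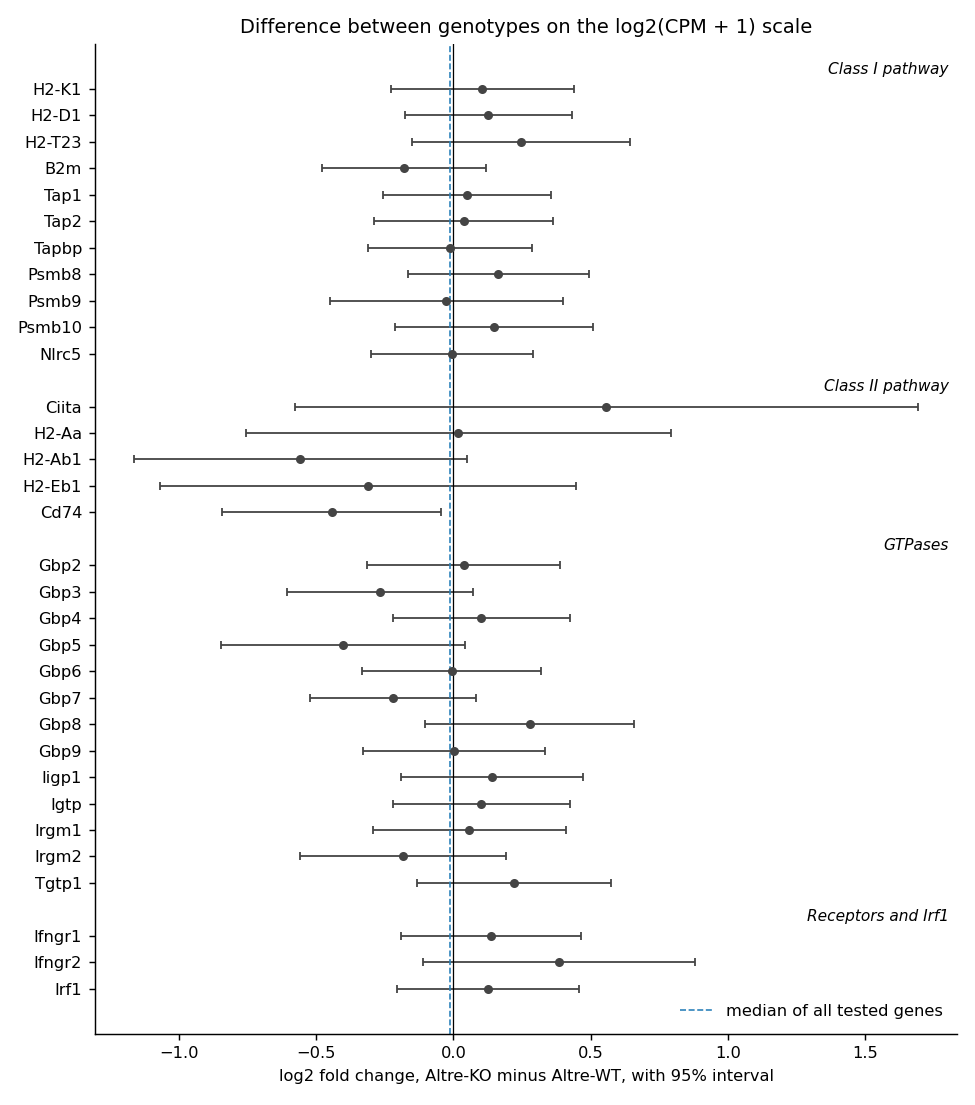
Log2 fold change of each gene, Altre-KO minus Altre-WT, on the log2(CPM + 1) scale, with its 95% interval from limma, by group. The interval of Cd74 (-0.84 to -0.044) is the one that does not reach 0, and the widest is that of Ciita.

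The receptor chains and Irf1 had their highest values in Altre-KO replicate 1, and none of the 3 passed the test. Ifngr1, the chain that binds interferon-gamma, had 266 and 220.2 CPM in Altre-KO and 223 and 217 CPM in Altre-WT. Ifngr2, the signalling chain that limits the response in T cells, had 58.8 and 47.4 CPM in Altre-KO and 40.5 and 39.9 CPM in Altre-WT, without overlap (log2 fold change 0.39, 95% interval -0.11 to 0.88, limma adjusted p = 0.999). Without Altre-KO replicate 1 it was 0.23. Irf1 had 598 and 426 CPM in Altre-KO and 449 and 475 CPM in Altre-WT, and its log2 fold change of 0.13 was -0.12 without Altre-KO replicate 1.

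Of 14 other genes of interferon-gamma signalling, all tested, 0 passed, with a median log2 fold change of -0.033. Of these, 5 were above 0, 9 below and 0 at an unadjusted p under 0.05. The share called was 0.0381% of all tested genes, so 0 in any of the pathway lists is not a result about its genes. For 2 of the 14 (14.3%) both Altre-KO libraries lay above both Altre-WT libraries and for 2 below, against 14.7% and 16.1% of all tested genes. Irf2, a repressor that competes with Irf1, had 12.6 and 36.8 CPM in Altre-KO and 32.3 and 39.1 CPM in Altre-WT. Ifng itself had 10.7 and 2.96 CPM in Altre-KO and 8.20 and 13.9 CPM in Altre-WT, and Jak1 had 791 and 947 CPM in Altre-KO and 982 and 979 CPM in Altre-WT. In Irf2 and Jak1 the low value was that of Altre-KO replicate 1, the library in which the receptor chains and Irf1 were highest.

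Of 32 other genes induced by interferon-gamma, 31 were listed and 25 tested, and 0 passed. Of the 25, 6 were above 0 and 19 below, with a median log2 fold change of -0.12 against -0.013 over all tested genes. Altre-KO replicate 2 was the lowest library for 15 of the 25, against 2905 of all 10486 tested genes. The median of log2(CPM + 1) minus the gene's mean was 0.072 and -0.12 in Altre-KO and 0.026 and 0.076 in Altre-WT. Serpina3g, a protease inhibitor induced in lymphocytes, had 123 and 77.5 CPM in Altre-KO and 158 and 117 CPM in Altre-WT (limma p of 0.0347 unadjusted and 0.999 adjusted). Gbp2b, a further member of the chromosome 3 family, had 15.0 and 27.5 CPM in Altre-KO and 33.4 and 29.0 CPM in Altre-WT, and Cd274, the ligand of the inhibitory receptor PD-1, had 73.5 and 78.3 CPM in Altre-KO and 106 and 86.2 CPM in Altre-WT. In Gbp2b and Cd274 the genotypes did not overlap. Both Altre-KO libraries lay above both Altre-WT libraries for 1 of the 25 genes and below for 6, against 14.7% and 16.1% of all tested genes. The interferon-gamma chemokines were low, with Cxcl11 at 0 in all 4 libraries, Cxcl10 at 5.51 and 4.23 CPM in Altre-KO and 6.02 and 6.73 CPM in Altre-WT, and Cxcl9 at 0.31 and 1.69 CPM in Altre-KO and 2.19 and 2.52 CPM in Altre-WT.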

How the data were processed

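RNA was sequenced from liver Tregs of young Altre-KO and Altre-WT mice, 2 libraries each. STAR, cutadapt, DESeq2 and build mm10 are named in the submitters' processing notes without roles, and no source used here names the counter or annotation. The deposited table holds RPM with 0.0001 added, as read from its values, and the CPM used here, per the file headers. It also holds the authors' mean signal per genotype, its log2 ratio and p-values, which entered no test.

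Between 93.0% and 93.8% of RPM values above 0 were whole multiples of 1 read (tolerance 0.02), so no count model was the main test; limma-voom on these reads, an alternative, called 4 genes. Limma 3.58.1 (R 4.3.3) was fitted on log2(CPM + 1) with a variance trend (20.8 prior degrees of freedom) to the 10486 genes with at least 4.22 CPM, or 10 reads at the median depth, in at least 2 libraries; p-values were adjusted over all of them. The fit was tested on simulated data with known changes and the same dispersion set for every gene. That does not show its power at the small differences reported here. An exact permutation test of 2 against 2 cannot go below 0.333 and was not used. Intervals cover the fit's error only. Positions and exon lengths are from GENCODE M21 (GRCm38), near copies from blastn 2.17.0 (at least 95% identity over 200 bases), promoters from RefSeq.

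The genes and lists were chosen with earlier results of these data known. All 32 genes are named, plus in each pathway list the 3 with the smallest p; others were chosen after their values were seen.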

Additional observations from a re-analysis of the deposited data

How the results depend on the processing

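None of the 32 genes passed under any alternative that tested it (12, or 11 for Ciita and H2-Eb1, since a mean of at least 20 CPM left 30 of the 32), the lowest adjusted p being 0.417, without Altre-KO replicate 2. The genes called among all tested were 4, and 0 with no filter on low values (1305 at an unadjusted p under 0.05), 2 with a pseudocount of 0.1 CPM and 6 to 16 without each library in turn (14 without Altre-KO replicate 2, 16 without Altre-WT replicate 2). Replicate numbers did not pair the libraries (r of same-numbered deviations -0.01 over 10486 genes). With the replicate number as a block 6 genes were called, and with a mean of at least 20 CPM 3 of 7288. Under both, 0 members were called. Leaving out each library moved the median log2 fold change over all 32 genes between -0.077 and 0.18. That of class I moved between -0.076 and 0.23, that of class II between -0.49 and -0.11, and that of the GTPases between -0.042 and 0.13. The class II and GTPase medians moved by less than the spread between libraries under every alternative. Without Altre-KO replicate 2 the class I median and that of all 32 genes moved by more than their spread, to 0.23 and 0.18. That spread comes from the same libraries, so a move smaller than it does not show stable medians. The sign was kept under every alternative that tested the gene by 13 of the 32 genes, Ciita and H2-Eb1 among them, and changed in some for 19, none of which was above 0.25 in size, and the cause was not tested. It changed with median-of-ratios and upper-quartile scaling for Gbp6 (0.024 and 0.011), Nlrc5 (0.025 and 0.012) and Tapbp (0.018 and 0.0048), with median-of-ratios scaling for Psmb9 (0.0034), and with limma-voom for Psmb9 (0.013), Gbp9 (-0.0051) and H2-Aa (-0.0058). Without each library in turn, ranges that crossed 0 were -0.076 to 0.29 for H2-K1, -0.077 to 0.57 for H2-T23, -0.089 to 0.19 for Tap1, -0.16 to 0.23 for Tap2, -0.069 to 0.044 for Tapbp, -0.069 to 0.39 for Psmb8, -0.29 to 0.23 for Psmb9, -0.074 to 0.37 for Psmb10, -0.067 to 0.056 for Nlrc5, -0.63 to 0.67 for H2-Aa, -0.22 to 0.29 for Gbp2, -0.020 to 0.22 for Gbp4, -0.14 to 0.13 for Gbp6, -0.095 to 0.097 for Gbp9, -0.012 to 0.29 for Iigp1, -0.073 to 0.28 for Igtp, -0.042 to 0.16 for Irgm1, -0.00020 to 0.27 for Ifngr1 and -0.12 to 0.37 for Irf1. The size of an effect that could be seen was limited by depth for Ciita (9 to 23 estimated reads per library) and the class II chains, and by 2 libraries per genotype throughout.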

Other observations

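Ratios within a library do not depend on how libraries are scaled. Of the 3 computed, each picked after the values were seen and given with no test, all separated the genotypes without overlap. Because they were picked in this way, their separation is not a result. Among single tested genes, 14.7% had both Altre-KO libraries above both Altre-WT libraries and 16.1% had them below. The third ratio, of class II to cell markers, stands with the class II values. H2-K1 and H2-D1 together, set against B2m in CPM, stood at 3.36 and 2.87 in Altre-KO and at 2.68 and 2.39 in Altre-WT. The Gbp genes of chromosome 3, set against those of chromosome 5, stood at 0.992 and 0.995 in Altre-KO and at 1.27 and 1.09 in Altre-WT. Gbp2b, Gbp10 and Gbp11 entered neither part of it. Such a ratio does not say which of its parts differed.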
